A study of Sus scrofa with 6 samples.

Results

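The mevalonate to squalene enzymes were examined by RNA-seq in IPEC-J2 cells, an epithelial cell line from the pig small intestine, after treatment with chenodeoxycholic acid (CDCA), a primary bile acid. The CON group received PBS and the CDCA group received 50 μM CDCA, each for 24 h, with 3 libraries per group. The paper calls the libraries of a group biological replicates, while the labels do not say whether these 3 came from separate cultures. The p-values therefore measure the spread between these libraries only. All cells are of a single line at a single dose and time, grown with fetal bovine serum. The members were the gene IDs that the deposited table names ACAT2, HMGCS1, MVK, PMVK, MVD, IDI1, FDPS, FDFT1 and SQLE. Each name matched 1 gene ID, which gave 9 members among 31908 gene IDs, and all 9 reached the mean of 1 TPM (transcript abundance scaled to the library total and to transcript length) over the 6 libraries that was required for a test.

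The mevalonate pathway builds isoprenoids and sterols from acetyl-CoA in the cytosol and endoplasmic reticulum. ACAT2 and HMGCS1 assemble HMG-CoA, from which mevalonate is made. MVK, PMVK and MVD turn mevalonate into isopentenyl diphosphate, IDI1 isomerizes it, FDPS joins these units into farnesyl diphosphate, FDFT1 condenses that into squalene, and SQLE oxidizes squalene on the way to cholesterol. In most cells the transcription factors of the SREBP family drive these genes when sterol is scarce, and farnesyl diphosphate also feeds protein prenylation, ubiquinone and dolichol.

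The listed TPM summed to between 351770 and 366073 per library, where a full library would sum to 1000000, so a value covers the listed transcripts of a gene and can miss others. No read counts were used, so the number of reads behind each value cannot be given. The 13 mRNAs encoded by mtDNA made up 13.8% to 15.0% of a CON library and 2.90% to 3.45% of a CDCA library in listed TPM, so the members were also compared with totals computed without them. Of 6 epithelial markers 5 were listed. Of these, KRT8, KRT18, EPCAM and CLDN4 were at 64.6 TPM or more in every library, whereas CDH1 was at 0.31 to 0.58 TPM, and the list summed to 624 to 647 TPM in CON against 1182 to 1322 TPM in CDCA, with CLDN4 at 215 to 237 against 765 to 863 TPM. The enterocyte markers VIL1, CDX2 and FABP2 were at or below 0.64 TPM in every library, and ANPEP was at 0.52 to 0.77 TPM in CON against 1.90 to 2.26 TPM in CDCA. The summed level of 4 immune markers was 0.44 to 1.32 TPM in CON and 4.86 to 5.97 TPM in CDCA. Of these, CD68 accounted for the difference, at 0 to 0.26 TPM in CON and 4.44 to 5.33 TPM in CDCA, while PTPRC, found on nearly all leukocytes, was at or below 0.01 TPM in every library. The part of these marker differences in the results was not tested. Fibroblast or stromal markers summed to at most 1.83 TPM and endothelial markers to at most 2.37 TPM in any library.

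To find out how the transcripts of the pathway responded to CDCA, 8708 genes, those with a mean not under 1 TPM, were compared by limma on log2(TPM + 1), where the change of a weakly expressed gene is understated. Transcripts of 7 of the 9 enzymes were downregulated at a Benjamini-Hochberg FDR under 0.05, and none was upregulated. Over 13 alternative analyses the number lower was between 5, without CON replicate 1, and 8. It was 8 with totals computed without the mtDNA-encoded mRNAs, where 2781 of 8707 tested genes were lower. It was also 8 with median ratio scaling, where 2346 of 8701 were lower. In the main analysis, 23.9% of all tested genes were lower and 29.3% were higher by this rule. With a log2 fold change over 1 in size also required, 2 members, ACAT2 and HMGCS1, were called lower and none higher, against 3.9% and 3.51% of all tested genes. The median log2 fold change of the members was -0.81, beside 0.05 for all tested genes. The 3 CDCA libraries lay below the 3 CON libraries for 8 members and above them for PMVK, while the groups were apart in these directions for 27.8% and 33.7% of all tested genes. Together the 9 members summed to 428 ± 22.9 TPM for CON against 224 ± 8.25 TPM for CDCA (SD, n = 3).

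**Figure D1:**
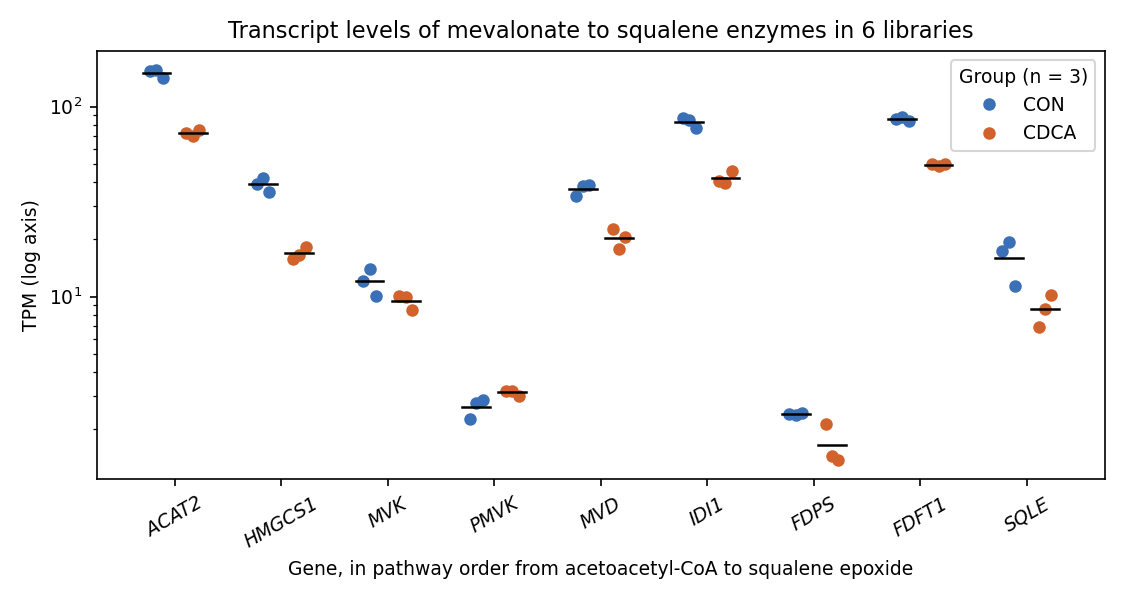
TPM of the 9 enzymes (log axis) in pathway order, with 1 point per library for CON and CDCA and a black line at each group mean (n = 3). CDCA points sit below CON points for every gene except PMVK, and the largest gap relative to level is at HMGCS1 (38.9 against 16.9 TPM).

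ACAT2, the cytosolic thiolase that joins acetyl-CoA units into acetoacetyl-CoA, was the most abundant member. It had 155, 155 and 141 TPM in the CON libraries against 72.5, 69.9 and 74.9 TPM in the CDCA libraries. The groups lay far apart, and the mean was 2.08-fold lower in CDCA (log2 fold change -1.04, SE 0.05, limma FDR 1.65e-05). By its most abundant listed transcript alone, the log2 fold change was -0.92, inside the limit for a call. In the RefSeq annotation of the pig (Sscrofa11.1), ACAT2 overlaps TCP1, which encodes a subunit of a cytosolic chaperonin. TCP1 was listed at 167 ± 8.65 TPM in CON and 147 ± 2.35 TPM in CDCA (SD, n = 3; log2 fold change -0.18, limma FDR 0.0151). The ratio of ACAT2 to TCP1 was 0.877 to 0.939 in CON and 0.470 to 0.506 in CDCA. The authors quantified abundance by RSEM, which divides reads that match several transcripts by estimation, and whether strand was used is not given in the sources used here.

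HMGCS1, the synthase that makes HMG-CoA from acetoacetyl-CoA, had the largest decrease of the 9. It had 39.0, 42.3 and 35.5 TPM in the CON libraries against 15.8, 16.6 and 18.3 TPM in the CDCA libraries. The groups were well apart, and the mean was 2.30-fold lower (log2 fold change -1.16, SE 0.08, limma FDR 6.17e-05). Of all tested genes, 3.15% had a lower log2 fold change. ACAT2 and HMGCS1 work in sequence, and the ratio of HMGCS1 to ACAT2 was 0.252 to 0.272 in CON and 0.218 to 0.244 in CDCA (two-sided exact permutation test, p = 0.1, which is the lowest value possible with 3 libraries per group).

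The 2 kinases that phosphorylate mevalonate in turn did not pass the test. MVK had 12.1, 13.9 and 10.1 TPM in the CON libraries against 10.0, 10.0 and 8.50 TPM in the CDCA libraries, so the lowest CON library lay just above the highest CDCA library. Its log2 fold change was -0.30 with a 95% interval of -0.59 to -0.01, and its limma FDR was 0.0737. The FDR of MVK was under 0.05 in 5 of 13 alternative analyses, down to 0.0182 with totals computed without the mtDNA-encoded mRNAs, where the log2 fold change was -0.44. PMVK was the only member with a higher mean in CDCA, at 2.26, 2.74 and 2.85 TPM in CON and 3.20, 3.20 and 3.01 TPM in CDCA. Its log2 fold change was 0.20 with a 95% interval of -0.04 to 0.43 (limma FDR 0.135). PMVK overlaps KCNN3 in RefSeq, a potassium channel gene listed at 0.41 ± 0.02 TPM in CON and 0.24 ± 0.02 TPM in CDCA (SD, n = 3), below the level required for a test. Only 8 members were found by name in RefSeq, and an overlapping gene was kept only where its symbol was among those used here.

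MVD, the decarboxylase that yields isopentenyl diphosphate, had 33.9, 38.4 and 38.6 TPM in the CON libraries against 22.8, 17.9 and 20.6 TPM in the CDCA libraries. All CDCA libraries were below all CON libraries, and the mean was 1.81-fold lower (log2 fold change -0.83, SE 0.10, limma FDR 0.000516). IDI1, the isomerase that supplies dimethylallyl diphosphate, had 87.1, 85.1 and 76.9 TPM in the CON libraries against 40.4, 39.8 and 45.7 TPM in the CDCA libraries. Its mean was 1.98-fold lower (log2 fold change -0.97, SE 0.07, limma FDR 7.58e-05), just inside the limit of 1 in size. IDI1 passed that limit with totals computed without the mtDNA-encoded mRNAs (-1.12) and with median ratio scaling (-1.02), as well as without CON replicate 3 (-1.02) or CDCA replicate 3 (-1.03).

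FDPS, which makes farnesyl diphosphate, was the least abundant member, although its neighbours in the pathway were among the most abundant. It had 2.41, 2.37 and 2.44 TPM in the CON libraries against 2.13, 1.44 and 1.38 TPM in the CDCA libraries. CDCA replicate 1 was close to the CON libraries, while the other two CDCA libraries were well below them. On the log2 scale the difference was -0.37 (SE 0.13, limma FDR 0.0495). That FDR was over 0.05 in 10 of 13 alternative analyses, up to 0.136 without CDCA replicate 3. A second listed FDPS transcript was at 0 in all 6 libraries.

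FDFT1, the squalene synthase, which commits farnesyl diphosphate to sterols, had the smallest standard error of the 9. It had 86.1, 87.8 and 83.8 TPM in the CON libraries against 50.03, 48.5 and 49.8 TPM in the CDCA libraries. The mean was 1.74-fold lower, which was -0.78 on the log2 scale (SE 0.04, limma FDR 1.43e-05); by its highest listed transcript it was -1.05, past the limit for a call. SQLE, the squalene epoxidase, had the largest standard error, at 17.3, 19.3 and 11.4 TPM in CON and 6.88, 8.63 and 10.2 TPM in CDCA. CON replicate 3 came close to CDCA replicate 3. The log2 fold change of SQLE was -0.81 (SE 0.21, limma FDR 0.0161), with a 95% interval of -1.31 to -0.31. Without CON replicate 1 its limma FDR was 0.0517, and without CON replicate 3 its log2 fold change was -1.03, past the limit for a call.

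**Figure D2:**
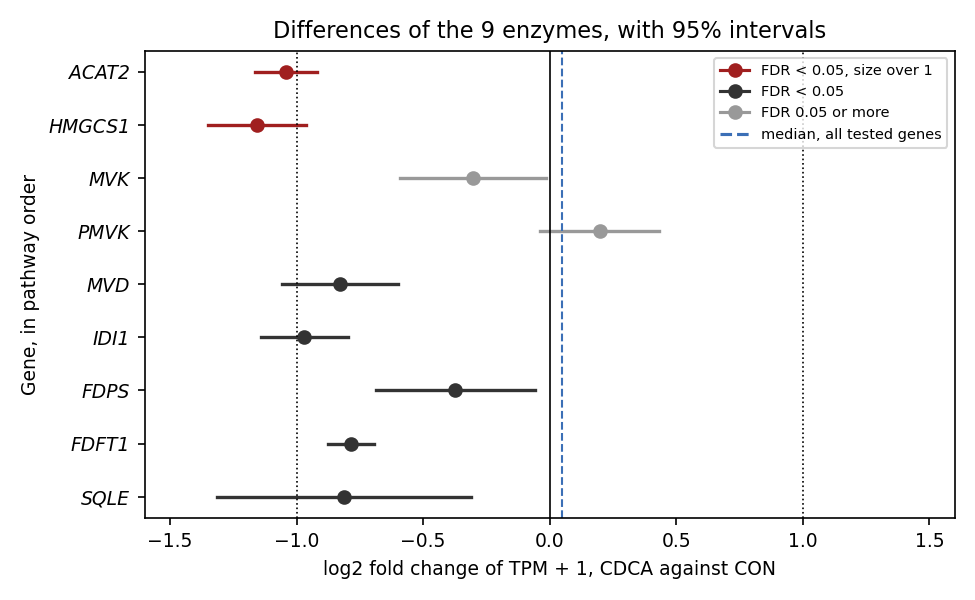
Log2 fold change of TPM + 1 between CDCA and CON for each enzyme in pathway order, with 95% intervals from limma, dotted lines at the limits for a call and a dashed line at the median of all tested genes (0.05). ACAT2 (-1.04) and HMGCS1 (-1.16) lie past the limit, and the intervals of MVK and PMVK belong to the members that did not pass the test.

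The order of the levels was similar in both groups. In CON, ACAT2 was followed by FDFT1 and IDI1 at 85.9 and 83.0 TPM, whose libraries overlapped. HMGCS1 and MVD followed at 38.9 and 36.9 TPM, again with overlap. SQLE and MVK (16.0 and 12.03 TPM) overlapped as well, as did PMVK and FDPS (2.62 and 2.41 TPM). In CDCA, FDFT1 and IDI1 no longer overlapped (49.4 and 41.9 TPM), MVD stood above HMGCS1 with overlapping libraries (20.4 and 16.9 TPM), and MVK stood above SQLE, also with overlap (9.51 and 8.58 TPM). PMVK and FDPS no longer overlapped in CDCA (3.14 and 1.65 TPM). Among the CON libraries, replicate 3 had the lowest value for 6 of the 9 members. Among the CDCA libraries no such library stood out, with 2 to 4 members lowest in each.

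The 9 members had 28 listed transcripts, of which 16 reached a mean of 1 TPM. Tested singly among 12205 listed transcripts, 10 of the 16 were lower at an FDR under 0.05 and none was higher, beside 18.7% and 23.1% of all tested transcripts, and 3 were called lower, beside 3.97%. The table gives no transcript IDs, so transcripts are named here by their rank in mean TPM. For ACAT2, the transcript of rank 1 went from 107 ± 5.75 to 56.3 ± 2.95 TPM (log2 fold change -0.92) and that of rank 2 from 40.6 ± 2.08 to 14.0 ± 0.64 TPM (SD, n = 3; log2 fold change -1.47). The share of rank 2 in the listed TPM of ACAT2 was 27.0% in CON and 19.4% in CDCA. The 3 main FDFT1 transcripts were all lower in CDCA, with log2 fold changes of -1.05, -0.66 and -0.55.

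For MVK, the main transcripts had log2 fold changes of opposite sign, a difference that was not tested. Its transcript of rank 1 had 7.72, 7.84 and 5.24 TPM in the CON libraries against 5.42, 2.32 and 2.57 TPM in the CDCA libraries (log2 fold change -0.89, limma FDR over all listed transcripts 0.0447). The transcript of rank 2 had 3.24, 4.42 and 2.76 TPM in the CON libraries against 3.02, 5.41 and 4.91 TPM in the CDCA libraries (log2 fold change 0.27, limma FDR 0.360). For both transcripts the groups overlapped, and CDCA replicate 1 resembled the CON libraries. The share of rank 1 was 57.6% of MVK in CON and 36.1% in CDCA.

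**Figure D3:**
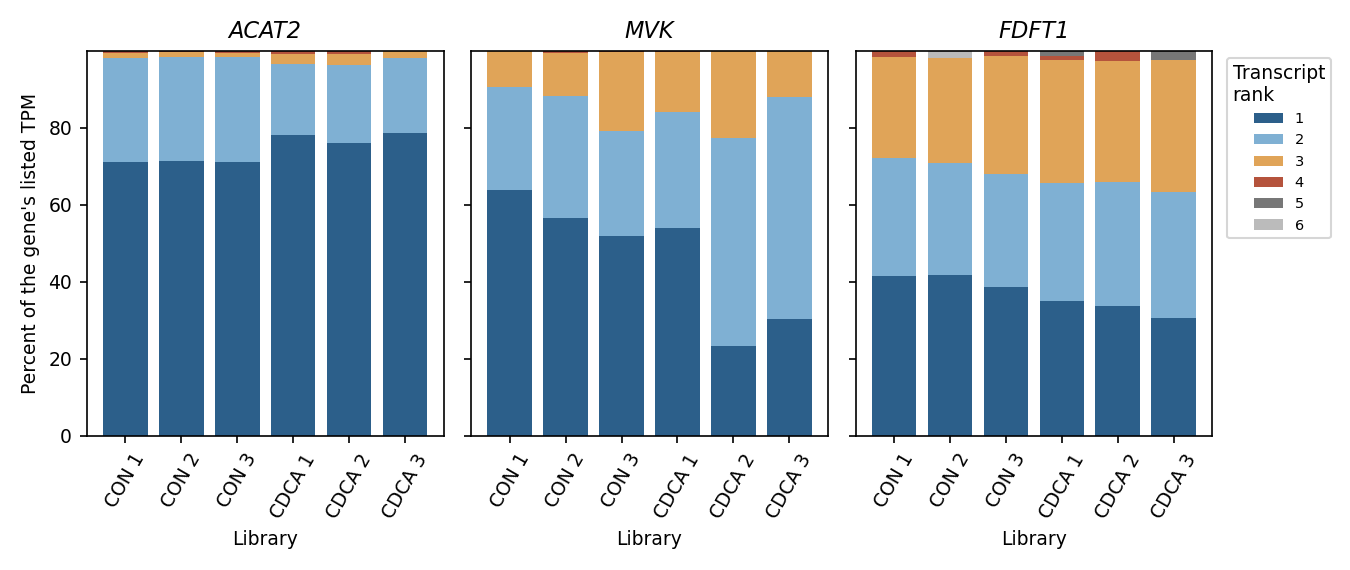
Percent of the listed TPM of ACAT2, MVK and FDFT1 held by each listed transcript, as stacked bars for the 6 libraries, with transcripts ranked by mean TPM and those at 0 throughout left out. The share of the rank 1 transcript of MVK is lower in CDCA replicates 2 and 3 than in the other libraries, and that of ACAT2 is higher in all CDCA libraries than in all CON libraries.

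A list of genes for the supply of acetyl-CoA and acetoacetyl-CoA also held some neighbours of the pathway, such as SOAT1. ACAT1, the mitochondrial thiolase that uses the same substrates as ACAT2 and serves ketone body and isoleucine metabolism, was upregulated. It had 48.2, 42.3 and 42.1 TPM in the CON libraries against 111, 107 and 119 TPM in the CDCA libraries (log2 fold change 1.33, SE 0.07, limma FDR 1.92e-05). The ratio of ACAT2 to ACAT1 was thus 3.21, 3.67 and 3.35 in CON and 0.654, 0.655 and 0.629 in CDCA, so that the more abundant thiolase transcript was ACAT2 in all CON libraries and ACAT1 in all CDCA libraries (two-sided exact permutation test, p = 0.1, the lowest possible). SLC25A1, the carrier that exports citrate for cytosolic acetyl-CoA, decreased from 67.0 ± 5.26 to 37.0 ± 1.25 TPM (SD, n = 3; log2 fold change -0.83, limma FDR 8.79e-05). ACSS2, which makes acetyl-CoA from acetate, decreased from 14.5 ± 0.71 to 10.5 ± 0.60 TPM (SD, n = 3; log2 fold change -0.43), and SOAT1, which esterifies cholesterol, decreased from 9.60 ± 0.94 to 4.40 ± 0.19 TPM (SD, n = 3; log2 fold change -0.97, past the limit for a call in 5 of 13 alternative analyses, down to -1.10). Of the 8 genes of this list, 7 were listed and 5 tested, with 3 lower and 1 higher at an FDR under 0.05 (23.9% and 29.3% of all tested genes) and a median log2 fold change of -0.43. ACLY, the citrate lyase, was listed at 0 to 2.02 TPM and was not tested.

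Beyond squalene, the enzymes from lanosterol to cholesterol had 11 listed genes, of which 7 were tested. All 7 had a log2 fold change below 0, as had 4002 of the 8708 tested genes, with a median of -0.45. Of these 7, CYP51A1 and NSDHL lay near 0 (-0.04 and -0.07), and over 13 alternative analyses their highest values were 0.006 and 0.02. At an FDR under 0.05, 4 were lower (23.9% of all tested genes), and 1, LSS, was called lower (3.9%), to which EBP was added (-1.05) with totals computed without the mtDNA-encoded mRNAs; when genes under 1 TPM were kept, the median was -0.16. LSS, which takes up the product of SQLE and forms lanosterol, decreased from 10.9 ± 1.40 to 2.84 ± 0.28 TPM (SD, n = 3; log2 fold change -1.63, limma FDR 4.83e-05). EBP, a sterol isomerase, decreased from 15.0 ± 1.15 to 7.51 ± 0.60 TPM (SD, n = 3; log2 fold change -0.91), and LBR, which acts as a sterol reductase in the nuclear membrane, from 19.6 ± 1.31 to 12.4 ± 0.65 TPM (SD, n = 3; log2 fold change -0.61). CYP51A1, the lanosterol demethylase, was at 78.3 ± 4.28 and 75.9 ± 3.54 TPM (SD, n = 3) with overlapping groups, and its log2 fold change of -0.04 did not pass the test (limma FDR 0.548); with totals computed without the mtDNA-encoded mRNAs it was -0.19 (limma FDR 0.0366). MSMO1, TM7SF2, DHCR7 and FAXDC2 were listed below 1 TPM in every library and were not tested.

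Another list holds the branches that take isoprenoids away from sterols. Of 15 names, 13 matched and all were tested, with 2 lower and 4 higher at an FDR under 0.05 and a median log2 fold change of 0.01, which was -0.14 with totals computed without the mtDNA-encoded mRNAs. These counts stand beside 23.9% lower and 29.3% higher over all tested genes. GGPS1, which extends farnesyl diphosphate to geranylgeranyl diphosphate, increased from 11.1, 10.5 and 10.6 TPM in CON to 23.3, 21.4 and 23.1 TPM in CDCA. Its log2 fold change of 1.01 (SE 0.06, limma FDR 2.68e-05) was just past the limit for a call, and it fell inside that limit in 6 of 13 alternative analyses, down to 0.86. FDFT1 and GGPS1 draw on the same substrate, and the ratio of FDFT1 to GGPS1 was 7.75 to 8.38 in CON and 2.14 to 2.27 in CDCA (two-sided exact permutation test, p = 0.1, the lowest possible). PGGT1B, a subunit of the enzyme that attaches geranylgeranyl groups to proteins, increased from 3.53 ± 0.46 to 6.02 ± 0.53 TPM (SD, n = 3; log2 fold change 0.63, limma FDR 0.00255). PDSS1, which builds the side chain of ubiquinone, decreased from 6.75 ± 0.43 to 2.37 ± 0.12 TPM (SD, n = 3; log2 fold change -1.20, limma FDR 5.19e-05). FNTA, shared by farnesyl and geranylgeranyl transferases, was at 45.2 ± 2.84 and 45.4 ± 1.25 TPM (SD, n = 3; log2 fold change 0.01, limma FDR 0.939).

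**Figure D4:**
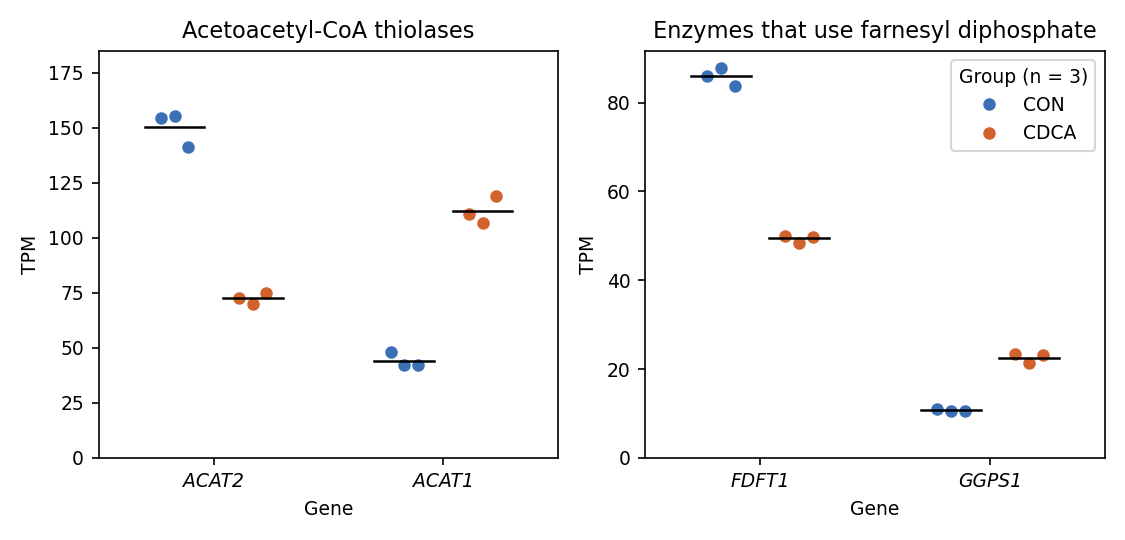
TPM of ACAT2 and ACAT1 (left) and of FDFT1 and GGPS1 (right) with 1 point per library and a black line at each group mean (n = 3). In each pair the first gene is lower and the second higher in CDCA, and ACAT1 at 107 to 119 TPM exceeds ACAT2 at 69.9 to 74.9 TPM in the CDCA libraries.

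The next list holds genes that sense and move sterols. Of 16 names, 15 were listed and 9 tested, with 1 lower and 5 higher at an FDR under 0.05 (23.9% and 29.3% of all tested genes). None was called. The median log2 fold change was 0.18, and 0.02 when genes under 1 TPM were kept. With totals computed without the mtDNA-encoded mRNAs the median was 0.03, with 2 lower and 4 higher. Under that scaling 2781 of all 8707 tested genes were lower and 1750 were higher. SREBF1, which encodes a transcription factor that activates lipid synthesis, went from 13.6 ± 1.26 to 10.7 ± 0.95 TPM (SD, n = 3; log2 fold change -0.32, limma FDR 0.0228, over 0.05 in 5 of 13 alternative analyses), and SREBF2, the family member most tied to sterol genes, was listed at or below 0.41 TPM and not tested. INSIG2, which retains the SREBP complex in the endoplasmic reticulum, increased from 4.60 ± 0.38 to 6.71 ± 0.22 TPM (SD, n = 3; log2 fold change 0.46, limma FDR 0.00271). INSIG1, the other INSIG gene of this list, went the other way, from 4.99 ± 0.50 to 3.94 ± 0.47 TPM (SD, n = 3). Its log2 fold change of -0.28 did not pass the test (limma FDR 0.0644). The FDR of INSIG1 was under 0.05 in 3 of 13 alternative analyses, down to 0.0208. NR1H2, an oxysterol receptor, increased from 30.7 ± 0.44 to 44.8 ± 1.10 TPM (SD, n = 3; log2 fold change 0.53, limma FDR 8.23e-05). NR1H3, the other oxysterol receptor of the list, was lower in CDCA, at 1.16 ± 0.75 TPM in CON and 0.42 ± 0.23 TPM in CDCA (SD, n = 3), and was not tested. SCAP, which escorts SREBP to the Golgi, was at 4.14 ± 1.21 and 2.65 ± 1.25 TPM (SD, n = 3; log2 fold change -0.52, limma FDR 0.151), and without CDCA replicate 3 its log2 fold change was -0.79 (limma FDR 0.0278). The FDR of SCAP was also under 0.05 with the replicate number as a block.

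**Figure D5:**
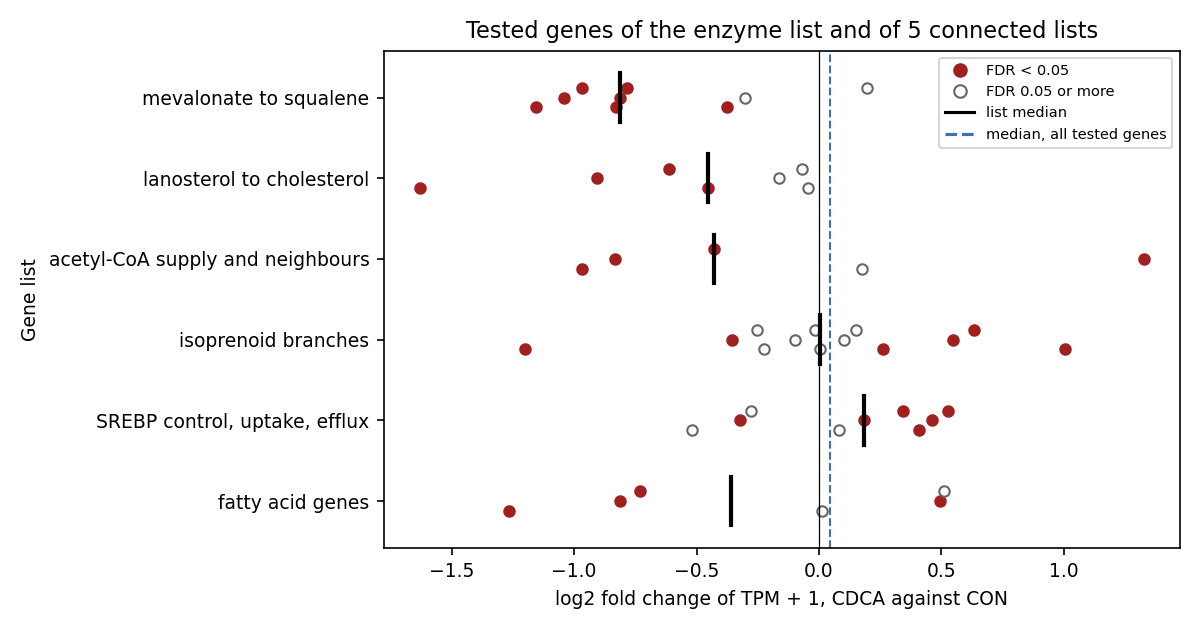
Log2 fold change of TPM + 1 between CDCA and CON for each tested gene of the mevalonate to squalene list and of 5 connected lists, filled where the limma FDR was under 0.05, with a black bar at each list median. List medians run from -0.81 for mevalonate to squalene to 0.18 for SREBP control, uptake and efflux, and the dashed line marks the median of all tested genes (0.05).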

How the data were processed

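The authors built libraries from IPEC-J2 RNA, sequenced them by Illumina chemistry, estimated abundances by RSEM, and deposited a table of TPM for 63041 listed transcripts. The submitters' processing notes name Bowtie 0.12.2 and mm10, a mouse build, whereas the gene IDs are those of the pig; the annotation release is not given in the sources used here, so no coordinates are printed. TPM were summed per gene ID, for all listed transcripts. Symbols came from the deposited table and, where blank, from a table of Ensembl IDs; 17501 IDs had a symbol. Groups were taken from sample titles.

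Genes averaging 1 TPM or more were fitted using limma 3.58.1 under R 4.3.3 (lmFit, eBayes with trend) on log2(TPM + 1), with Benjamini-Hochberg adjustment. Calls needed an FDR under 0.05 and a log2 fold change over 1 in size. The authors used edgeR, which needs read counts. The fit was also run on simulated data in which most genes were unchanged and no common shift of the mtDNA-encoded mRNAs was built in. That run therefore cannot show how the fit behaves under such a shift. Ratios of genes were compared by exact permutation. Named genes were all members, and called genes and the 3 largest changes of each list. The 5 genes outside the lists most correlated with the members' mean standardized profile were also named. CYP51A1, NSDHL, ACSS2, SREBF1, INSIG1, FNTA, FADS1 and SCD were named after their values were seen. So were the untested ACLY, SREBF2, NR1H3, MSMO1, TM7SF2, DHCR7 and FAXDC2, and the overlapping TCP1 and KCNN3. The members and lists were chosen with earlier results of these data known. Some genes of the connected lists are not reported here and were left out of the list counts and medians. Alternatives were a pseudocount of 0.1 TPM, no filter, totals without mtDNA-encoded mRNAs, median ratio scaling, rescaling to 1000000 TPM, the highest listed transcript, a replicate block, each library left out and, added after seeing the data, each listed transcript.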

Additional observations from a re-analysis of the deposited data

How the results depend on the processing

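The median log2 fold change of the 9 enzymes was -0.95 with totals computed without the mtDNA-encoded mRNAs, a scaling that moved the median of all tested genes by -0.13, and -0.89 with the highest listed transcript of each gene. With those totals the ratio of CDCA to CON in the members' share of listed TPM was 0.470 rather than 0.531, and 67.6% of all calls were lower rather than 52.6%. With single libraries left out, between 2 and 4 members were called lower; the 4 without CON replicate 3 were ACAT2, HMGCS1, IDI1 and SQLE. Over all genes, 306 were called higher, against 509 with a pseudocount of 0.1 TPM and 523 with the listed TPM rescaled to 1000000. Deviations from the group means of equally numbered libraries correlated at -0.04, -0.09 and -0.05, so no shared replicate effect was visible. These correlations cannot show whether the libraries were handled in pairs. With the replicate number as a block, 2 members were still called lower and 7 had an FDR under 0.05, with FDPS out (0.0759) and MVK in (0.0281). The table holds no read counts, so the counting error of weakly listed members such as FDPS and PMVK could not be given.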

Other observations

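SREBP factors also drive genes of fatty acid synthesis. Of 8 names, all were listed and 6 tested, with 3 lower and 1 higher at a limma FDR under 0.05 (23.9% and 29.3% of all tested genes) and a median log2 fold change of -0.36, which was -0.03 when genes under 1 TPM were kept and -0.08 with the listed TPM rescaled to 1000000. ELOVL6, which elongates saturated fatty acids, decreased from 13.8 ± 0.23 to 5.16 ± 0.58 TPM (SD, n = 3; log2 fold change -1.27, limma FDR 4.62e-05). FADS2, a desaturase of polyunsaturated fatty acids, decreased from 123 ± 3.99 to 69.9 ± 4.89 TPM (SD, n = 3; log2 fold change -0.81), and FASN, the fatty acid synthase, from 2.65 ± 0.85 to 1.18 ± 0.33 TPM (SD, n = 3; log2 fold change -0.73, limma FDR 0.0239). FADS1, a desaturase of the same pathway as FADS2, was at 73.7 ± 1.29 and 74.5 ± 5.95 TPM (SD, n = 3; log2 fold change 0.01, limma FDR 0.877). SCD increased from 2.16 ± 0.47 to 3.45 ± 0.53 TPM (SD, n = 3; log2 fold change 0.50, limma FDR 0.0289). The FDR of FASN was over 0.05 in 6 of 13 alternative analyses and that of SCD in 5, while FASN was called lower with a pseudocount of 0.1 TPM (-1.09, limma FDR 0.0235).

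Outside the lists, the genes whose log2(TPM + 1) over the 6 libraries was most like the mean standardized profile of the members were MMP28 (Pearson's r 0.999), RCAN2 (0.997), CLCN1 (0.996), ABR (0.996) and TMC8 (0.995). These are correlations over 6 libraries in 2 groups that share the CDCA contrast, and 990 tested genes had an r above 0.95, so they describe the pattern and no more. MMP28, a matrix metalloproteinase, was at 1.72 ± 0.31 TPM in CON and 0.45 ± 0.04 TPM in CDCA (SD, n = 3), and CLCN1, a chloride channel, at 19.9 ± 2.02 and 8.50 ± 0.95 TPM (SD, n = 3). Among the members, the r with this profile, of which they are a part, ran from 0.832 for MVK to 0.986 for FDFT1, apart from -0.743 for PMVK.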
